A study of Mus musculus with 2 samples.

Results

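The cyclin and cyclin-dependent kinase (CDK) genes of mouse round spermatids were examined, together with the CDK-like Cdkl kinase genes and the Cdkn genes, most of which encode CDK inhibitors. Members were chosen by gene symbol and not by expression, and 61 of the 23234 genes in the table matched: 27 cyclin or cyclin-binding genes, 19 CDK genes, 5 Cdkl genes and 10 Cdkn genes. Round spermatids are germ cells that have completed both meiotic divisions but have not yet begun to elongate. RNA-seq was performed on a library labelled Epc-dKO, from mice deficient for both Epc1 and Epc2, and on a library from wild-type mice. Both were of the C57BL/6 strain and of total RNA. The Epc1 and Epc2 proteins belong to the TIP60 complex, which acetylates histones. The age of the mice, the number of animals behind a library, and the alleles or driver used to remove the genes are not stated in the labels. Each genotype had 1 library, so differences cannot be set against a spread between replicates and no test was run.

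Cyclins are regulatory subunits that bind and activate CDKs. The cell cycle pairs drive entry into DNA replication and the mitotic and meiotic divisions, whereas a separate branch of the family phosphorylates RNA polymerase II and acts in transcription. Inhibitor proteins of the Cdkn families hold the kinases back, and phosphatases, kinases and ubiquitin ligases set when they act. In the testis, spermatogonia divide by mitosis and spermatocytes by meiosis, and round spermatids no longer divide, although transcripts made in spermatocytes can persist in them.

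Promoter sequences of 5 cell cycle members are shown because they belong to the cell cycle roles, whose median ratios lay below that of the family, and because the control of several of them through a CCAAT box and a cell cycle homology element is textbook knowledge. They are RefSeq promoters on the GRCm38.p6 build, from 120 bases before the annotated start of transcription to 30 bases after it, 5′ to 3′ on the strand of the gene. Capitals mark TTTGAA, the only spelling of the cell cycle homology element that was searched, and CCAAT or its reverse complement ATTGG. All 5 genes lie on the minus strand, Ccnb2 at chr9:70421525-70421674, Ccnf at chr17:24251380-24251529, Cdk1 at chr10:69352883-69353032, Ccnb1 at chr13:100786457-100786606 and Ccna1 at chr3:55055026-55055175.
Ccnb2: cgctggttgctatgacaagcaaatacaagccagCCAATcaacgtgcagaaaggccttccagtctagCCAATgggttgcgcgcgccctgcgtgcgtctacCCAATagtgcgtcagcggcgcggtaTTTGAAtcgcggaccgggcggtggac
Ccnf: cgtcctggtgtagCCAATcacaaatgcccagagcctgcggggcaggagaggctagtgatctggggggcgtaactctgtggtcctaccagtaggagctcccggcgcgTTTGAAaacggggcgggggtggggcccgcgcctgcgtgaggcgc
Cdk1: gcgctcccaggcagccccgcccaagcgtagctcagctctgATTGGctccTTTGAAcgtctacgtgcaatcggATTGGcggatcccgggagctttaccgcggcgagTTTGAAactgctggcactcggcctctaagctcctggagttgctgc
Ccnb1: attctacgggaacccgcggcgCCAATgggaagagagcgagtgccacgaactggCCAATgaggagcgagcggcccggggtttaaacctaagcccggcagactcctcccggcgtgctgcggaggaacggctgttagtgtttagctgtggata
Ccna1: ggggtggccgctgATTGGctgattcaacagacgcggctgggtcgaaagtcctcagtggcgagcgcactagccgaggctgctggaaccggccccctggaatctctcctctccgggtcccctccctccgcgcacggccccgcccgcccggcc

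In these stretches Ccnb2 held 3 CCAAT boxes before a TTTGAA at bases 5 to 10 after the start. Ccnf and Cdk1 held TTTGAA within the last 15 bases before it, and Cdk1 held it at a second place upstream. No TTTGAA was found in the windows of Ccnb1 and Ccna1, which held CCAAT or ATTGG. Other spellings of the element were not searched, so its absence from these 2 promoters was not tested. Over windows of 300 bases, searched on both strands, 3 of 11 cell cycle members with a RefSeq promoter had TTTGAA: Ccnb2, Ccnf and Cdk1. Among all 49 members with a promoter the letters were present in 7 (14.3%), against 20.2% of 27025 genes in the table. The cAMP response element TGACGTCA was found in 2 of 49 (4.08%), Ccnl1 and Cdkn2b, and in 2.03% of the table. CCAAT was found in 26 of the 49 (53.1%) and in 41.1% of the table. It was added to the search after the sequences were seen, so its higher share among members is a description and not a test. These matches describe letters in a window and no binding was measured. The 3 genes with TTTGAA did not share a ratio: on the log2 scale defined next, Ccnf stood at 0.09, Cdk1 at -0.28 and Ccnb2 at -0.34.

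Levels are given in FPKM, fragments per unit of transcript length and of mapped fragments in a library, as the authors deposited them. Differences are given as log2((FPKM + 1)/(FPKM + 1)), the library labelled Epc-dKO over the wild-type library, a scale that understates the difference of low genes. A gene was called expressed when its FPKM averaged 1 or more over the libraries, and the words rose and fell are kept for differences of at least 2-fold on this scale. Read depth is unknown. The summed FPKM was 198081 in the library labelled Epc-dKO and 193611 in the wild-type library. Epc1 had 13.6 FPKM in the library labelled Epc-dKO and 11.4 in the wild-type library, and Epc2 had 10.5 in the library labelled Epc-dKO and 7.12 in the wild-type library, so neither gene was lower in the library labelled Epc-dKO. A gene-level value includes exons outside any deleted part and does not test the label. All 12 round spermatid markers were expressed, with median levels of 73.9 FPKM in the library labelled Epc-dKO and 60.0 FPKM in the wild-type library. Their summed FPKM was 1567 in the library labelled Epc-dKO and 742 in the wild-type library, and 4 of them rose: Prm2 (log2 ratio 3.01), Prm1 (2.82), Tnp2 (1.89) and Tnp1 (1.84), genes of sperm chromatin packing. Of all expressed genes 2.75% rose. Most of the gap in the sums came from Prm2, with 675 FPKM in the library labelled Epc-dKO and 82.8 FPKM in the wild-type library. The other 8 markers lay within 2-fold, the median ratio of the list was 0.17, and 3 of the 12 were below 0.

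No member of the family rose or fell. Of the 61 members 47 were expressed and all 47 lay within 2-fold, with 0 higher and 0 lower in the library labelled Epc-dKO, where 2.75% of 10438 expressed genes were higher and 1.88% lower. Shares this small amount to few genes in a list of 47, so counts of 0 lie near them. The log2 ratios of the 47 ran between -0.79 for Ccna2 and 0.55 for Ccni. The median over the expressed members was -0.10, beside -0.05 over all expressed genes, and 30 of the 47 (63.8%) were below 0, beside 54.4% of all expressed genes. Over all 61 members the median was also -0.10, beside -0.00 over all 23234 genes. The summed FPKM of the family was 978 in the library labelled Epc-dKO and 980 in the wild-type library.

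**Figure D1:**
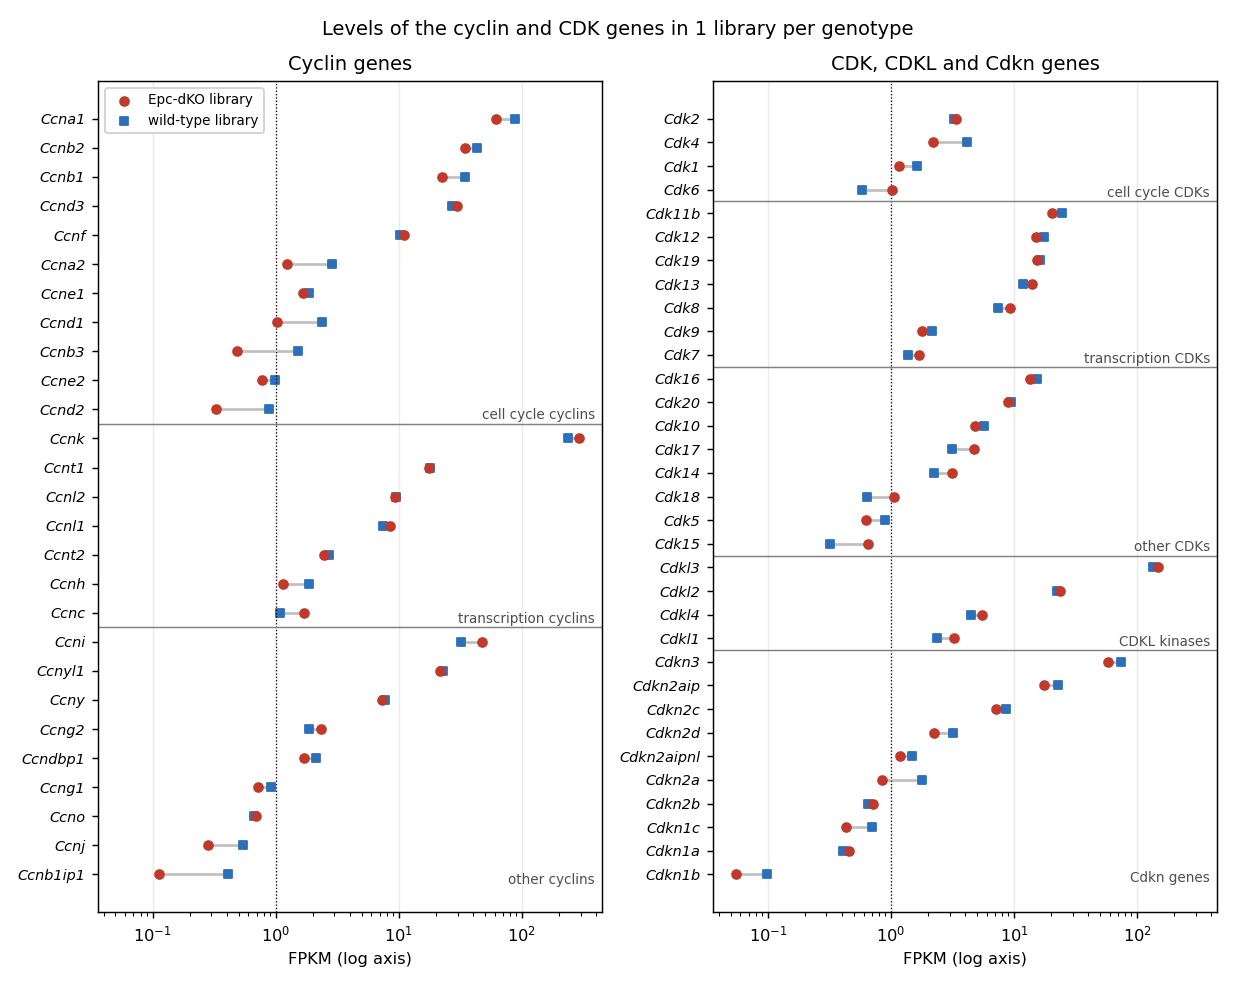
FPKM of 60 of the 61 members on a log axis, grouped by role and ordered by mean level within a role; circles are the library labelled Epc-dKO, squares the wild-type library, and the dotted line marks 1 FPKM. Ccnk and Cdkl3 lie far to the right in both libraries, and the widest gaps are in low cyclin genes such as Ccnb3 and Ccnd2.

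A few members made up most of the family's signal in both libraries. Ccnk and Cdkl3 together held 44.9% of the summed FPKM of the members in the library labelled Epc-dKO and 38.0% in the wild-type library. The 10 members with the highest mean held 75.2% in the library labelled Epc-dKO and 73.2% in the wild-type library. Of the 10 highest members of each library, 9 were shared. The order at the top was Ccnk, Cdkl3, Ccna1 and Cdkn3 in both libraries. Next came Ccni in the library labelled Epc-dKO and Ccnb2 in the wild-type library.

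The cell cycle cyclins had the lowest class median, except with a minimum mean of 5 FPKM, where the Cdkn genes stood at -0.35 and these cyclins at -0.33. None of them passed the 2-fold rule, 9 of the 11 were expressed, 7 of these 9 had a log2 ratio below 0, and the class median was -0.51. Ccna1, the A-type cyclin of the germ line that male mice need for the meiotic divisions, had 61.2 FPKM in the library labelled Epc-dKO and 87.5 FPKM in the wild-type library (log2 ratio -0.51). Ccnb1, a partner of Cdk1 in division, had 22.4 FPKM in the library labelled Epc-dKO and 34.6 FPKM in the wild-type library (-0.61). Ccnb2, its close relative, had 34.3 FPKM in the library labelled Epc-dKO and 43.5 FPKM in the wild-type library (-0.34). Each of these abundant division cyclins was thus lower in the library labelled Epc-dKO by less than 2-fold, at levels where the pseudocount of 1 weighs little.

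Ccna2, Ccnb3 and Ccnd1, all below 3 FPKM, had lower ratios than these 3. Ccna2, the A-type cyclin of replication and division in somatic cells, had 1.25 FPKM in the library labelled Epc-dKO and 2.89 FPKM in the wild-type library (log2 ratio -0.79). Ccnb3, a B-type cyclin of meiosis encoded on the X chromosome, had 0.483 FPKM in the library labelled Epc-dKO and 1.53 FPKM in the wild-type library (-0.77). Ccnd1, a D-type cyclin that activates Cdk4 and Cdk6, had 1.03 FPKM in the library labelled Epc-dKO and 2.37 FPKM in the wild-type library (-0.73). These calls turn on the pseudocount: with 0.1 in place of 1, Ccna2, Ccnb3 and Ccnd1 fell past 2-fold (-1.15, -1.48 and -1.13), where 6.25% of expressed genes did. With 0.5 only Ccnb3 of the members did (-1.04), where 3.49% of expressed genes did. On the TPM scale each library was rescaled to a fixed larger sum, so more genes passed the minimum and 60 members entered. Of these 60, 5 were lower by 2-fold, where 6.96% of 15151 genes were. They were Ccna2, Ccnb3, Ccnd1, Ccnd2 and Ccnb1ip1. The mean level of Ccnb3 lay just above the minimum.

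Ccnd3, Ccnf and Ccne1 were close to equal. Ccnd3, the D-type cyclin with the highest level here, had 29.8 FPKM in the library labelled Epc-dKO and 27.1 FPKM in the wild-type library (log2 ratio 0.13). Ccnf, which encodes the substrate-binding F-box subunit of a ubiquitin ligase and does not activate a CDK, had 11.1 FPKM in the library labelled Epc-dKO and 10.3 FPKM in the wild-type library (0.09). Ccne1, which activates Cdk2 at the entry to replication, had 1.66 FPKM in the library labelled Epc-dKO and 1.86 FPKM in the wild-type library (-0.11). The class therefore held both lower members and members with nearly no gap. Below the minimum level, Ccnd2 had one of the wider gaps, with 0.325 FPKM in the library labelled Epc-dKO and 0.877 FPKM in the wild-type library (-0.50, and -1.20 with a pseudocount of 0.1), and Ccne2 had 0.780 FPKM in the library labelled Epc-dKO and 0.979 FPKM in the wild-type library.

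Most markers of dividing and premeiotic germ cells lay below 0, as did most of these cyclins. Of 15 spermatogonial markers, 14 had a log2 ratio below 0, and their summed FPKM was 20.9 in the library labelled Epc-dKO and 44.1 in the wild-type library. Of the 11 expressed, 2 fell: Dmrt1 (-1.29) and Crabp1 (-1.07). The marker above 0 was Id4 (0.39), which was below the minimum level, and none of the 15 was at 0 in both libraries. Among all expressed genes 1.88% fell and 54.4% were below 0. Of 10 proliferation markers 8 were below 0, with sums of 78.9 FPKM in the library labelled Epc-dKO and 94.6 FPKM in the wild-type library, and 2 of 9 expressed fell, the replication helicase genes Mcm2 (-1.11) and Mcm5 (-1.01). Top2a, Mki67 and Pcna, also proliferation markers, stood at -0.14, -0.11 and -0.04, whereas Tyms (0.39) and Rrm2 (0.08) were above 0. Of 12 markers of spermatocytes, 9 were below 0 and 3 above it, the highest being Piwil1 (0.40). Their median was -0.08, with sums of 649 FPKM in the library labelled Epc-dKO and 786 FPKM in the wild-type library. Without Hspa2 the other 11 summed to 202 FPKM in the library labelled Epc-dKO and 207 FPKM in the wild-type library, and Tex101 was the gene of the list that fell, to 5.69 FPKM in the library labelled Epc-dKO, against 12.4 FPKM in the wild-type library. Markers of somatic cells were low beside those of round spermatids, but not beside the low cyclins. Insl3 had 14.9 FPKM in the wild-type library, where Ccna2 had 2.89 FPKM. The sums were 7.32 FPKM in the library labelled Epc-dKO and 11.9 FPKM in the wild-type library for 8 Sertoli genes. The sums were 22.3 FPKM in the library labelled Epc-dKO and 29.8 FPKM in the wild-type library for 6 Leydig genes, of which Insl3 fell (-1.03). Without Insl3 the other 5 summed to 15.5 FPKM in the library labelled Epc-dKO and 14.8 FPKM in the wild-type library. The sums were 6.33 FPKM in the library labelled Epc-dKO and 13.1 FPKM in the wild-type library for 5 peritubular and stromal genes. For 6 blood, immune and endothelial genes they were 3.01 FPKM in the library labelled Epc-dKO and 4.53 FPKM in the wild-type library. The part of other cells in the levels of the cyclins was not tested, and in bulk RNA fewer cells of a type and less RNA per cell cannot be told apart.

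**Figure D2:**
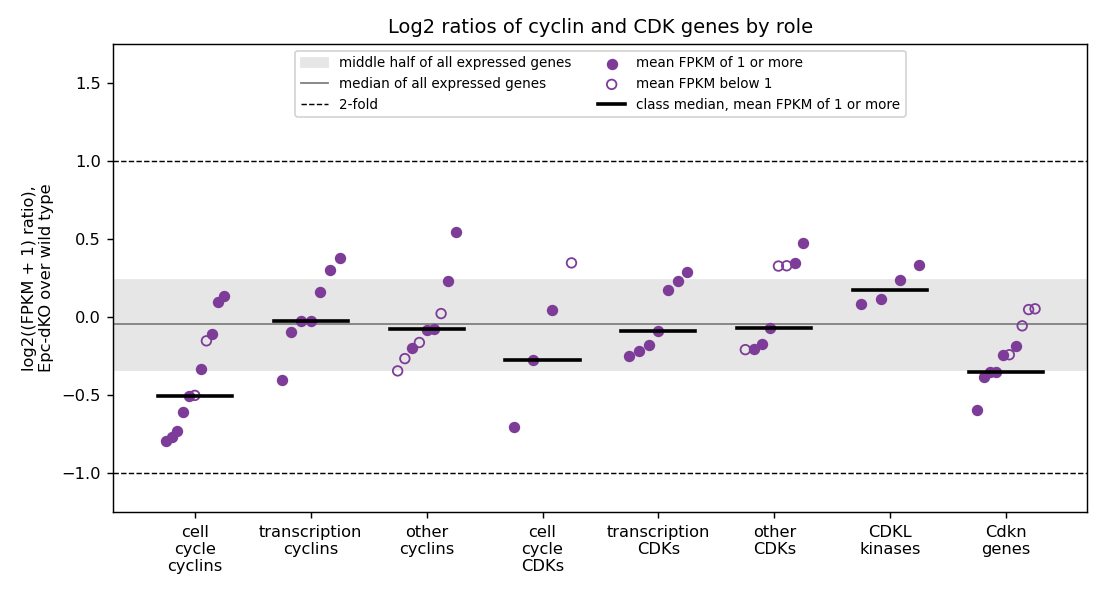
Log2 ratio of (FPKM + 1), library labelled Epc-dKO over wild type, for the same 60 members by role; filled points are members with a mean FPKM of 1 or more, open points those below, black bars the medians of the filled points, and the grey band and line the quartiles and median of all expressed genes. Cell cycle cyclins have the lowest bar, at -0.51, and every point lies between the dashed 2-fold lines.

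The 4 CDKs of the cell cycle were all below 5 FPKM, and 3 of them were expressed. Cdk1, the kinase that drives division, had 1.16 FPKM in the library labelled Epc-dKO and 1.62 FPKM in the wild-type library (log2 ratio -0.28). Cdk2, which acts in replication and at meiotic telomeres, had 3.37 FPKM in the library labelled Epc-dKO and 3.25 FPKM in the wild-type library (0.04). Cdk4, a partner of the D-type cyclins, had 2.18 FPKM in the library labelled Epc-dKO and 4.18 FPKM in the wild-type library (-0.70). Cdk4 thus had the widest gap of the class, and its relative Cdk6 lay the other way below the minimum, with 1.01 FPKM in the library labelled Epc-dKO and 0.583 FPKM in the wild-type library. Compared per length, the B-type cyclins stood well above their kinase in both libraries, since Ccnb1 and Ccnb2 each exceeded 20 FPKM where Cdk1 was below 2 FPKM.

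Cyclins of transcription held the most abundant member, and their log2 ratios lay on both sides of 0, between -0.41 and 0.38. All 7 were expressed, 0 passed the rule, and the class median was -0.02. Ccnk, which encodes the partner of Cdk12 and Cdk13 and so acts in transcript elongation, had 293 FPKM in the library labelled Epc-dKO and 237 FPKM in the wild-type library (log2 ratio 0.30). Its level exceeded that of 99.5% of expressed genes in the library labelled Epc-dKO and 99.3% in the wild-type library. Ccnt1, a partner of the elongation kinase Cdk9, had 17.7 FPKM in the library labelled Epc-dKO and 18.1 FPKM in the wild-type library (-0.02). Ccnl2, a cyclin that pairs with Cdk11 kinases and acts in splicing, had 9.32 FPKM in the library labelled Epc-dKO and 9.52 FPKM in the wild-type library (-0.03). Ccnt1 and Ccnl2 were so near to equal that their sign turned positive when the libraries were rescaled to a median ratio of 1, as did that of Ccnt1 with rescaling to the upper quartile. Ccnl1, the relative of Ccnl2, had 8.43 FPKM in the library labelled Epc-dKO and 7.45 FPKM in the wild-type library (0.16).

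The low transcription cyclins went both ways. Ccnc, the cyclin of the Mediator kinase module, had 1.70 FPKM in the library labelled Epc-dKO and 1.08 FPKM in the wild-type library (log2 ratio 0.38). Ccnh, which with Cdk7 forms the CDK-activating kinase, had 1.16 FPKM in the library labelled Epc-dKO and 1.86 FPKM in the wild-type library (-0.41). Ccnt2 had 2.46 FPKM in the library labelled Epc-dKO and 2.70 FPKM in the wild-type library (-0.10). None of these gaps passed the rule.

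The CDKs of transcription all lay within 2-fold. All 7 were expressed, with log2 ratios between -0.25 and 0.29 and a median of -0.09. Cdk11b, a kinase of transcription and splicing, had 20.4 FPKM in the library labelled Epc-dKO and 24.4 FPKM in the wild-type library (-0.25). Cdk12 had 15.0 FPKM in the library labelled Epc-dKO and 17.6 FPKM in the wild-type library (-0.22). Its relative Cdk13 lay the other way, with 14.0 FPKM in the library labelled Epc-dKO and 11.8 FPKM in the wild-type library (0.23). Both Ccnk kinases were thus expressed at a small fraction of the level of their cyclin.

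Of the Mediator kinases, Cdk19 had 15.3 FPKM in the library labelled Epc-dKO and 16.4 FPKM in the wild-type library (-0.09). Cdk8 had 9.26 FPKM in the library labelled Epc-dKO and 7.40 FPKM in the wild-type library (0.29). Cdk19 was the higher of this pair in both libraries. Low members were Cdk9, with 1.80 FPKM in the library labelled Epc-dKO and 2.18 FPKM in the wild-type library, and Cdk7, with 1.68 FPKM in the library labelled Epc-dKO and 1.38 FPKM in the wild-type library.

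Cyclins and CDKs outside these branches included the pair known for male fertility. In the mouse Ccnyl1, a relative of the membrane-bound cyclin Ccny, activates Cdk16, and both are needed for normal sperm. Ccnyl1 had 21.5 FPKM in the library labelled Epc-dKO and 22.8 FPKM in the wild-type library (log2 ratio -0.08). Cdk16, which is X-linked, had 13.5 FPKM in the library labelled Epc-dKO and 15.4 FPKM in the wild-type library (-0.18). Ccny itself had 7.35 FPKM in the library labelled Epc-dKO and 7.79 FPKM in the wild-type library (-0.07). All 3 were near equal between the libraries, and Ccnyl1 made up 74.5% of the summed FPKM of Ccny and Ccnyl1 in each of them.

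Ccni, an atypical cyclin, had the highest ratio of all expressed members on this scale, with 47.0 FPKM in the library labelled Epc-dKO and 31.9 FPKM in the wild-type library (log2 ratio 0.55). Cdk17, a relative of Cdk16, had 4.74 FPKM in the library labelled Epc-dKO and 3.14 FPKM in the wild-type library (0.47). Cdk14, which pairs with cyclin Y proteins, had 3.12 FPKM in the library labelled Epc-dKO and 2.24 FPKM in the wild-type library (0.35). These 3 members were higher in the library labelled Epc-dKO, each by less than 2-fold. With a pseudocount of 0.1 Ccnc (0.61) and Cdk17 (0.58) stood above Ccni (0.56), and both also did on the TPM scale. Cdk18, the third relative of Cdk16, was higher there too but below the minimum, with 1.07 FPKM in the library labelled Epc-dKO and 0.646 FPKM in the wild-type library. Cdk20, a kinase linked to cilia, had 8.95 FPKM in the library labelled Epc-dKO and 9.48 FPKM in the wild-type library (-0.07). Cdk10 had 4.86 FPKM in the library labelled Epc-dKO and 5.75 FPKM in the wild-type library (-0.20). Ccng2 stood at 0.23 and Ccndbp1, which encodes a protein that binds D-type cyclins, at -0.20.

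The Cdkl kinases, relatives of CDKs that include genes linked to cilia, included an abundant member. Cdkl3 was the second most abundant member, with 147 FPKM in the library labelled Epc-dKO and 135 FPKM in the wild-type library (log2 ratio 0.11). Cdkl2 had 23.6 FPKM in the library labelled Epc-dKO and 22.3 FPKM in the wild-type library (0.08). Both were near equal between the libraries. Cdkl4 had 5.45 FPKM in the library labelled Epc-dKO and 4.48 FPKM in the wild-type library (0.23), and Cdkl1 had 3.24 FPKM in the library labelled Epc-dKO and 2.36 FPKM in the wild-type library (0.33).

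Ccnb3 and Cdk16 are X-linked, and both had a log2 ratio below 0 (-0.77 and -0.18). Over all 326 expressed X-linked genes the median was -0.47 and 82.8% were below 0, whereas it was -0.03 over 10021 expressed autosomal genes. The 44 expressed autosomal members had a median of -0.09. The ratio of Ccnb3 lay below the quartiles of expressed X-linked genes, -0.69 and -0.16, and that of Cdk16 lay between them. Ccna2, Ccnd1, Cdk4 and Ccnb1, with ratios between -0.79 and -0.61, are autosomal.

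Among the Cdkn genes, all 6 expressed members had a log2 ratio below 0, and the class median was -0.35. Cdkn3, which encodes a phosphatase that removes the activating phosphate of CDKs, was the most abundant, with 57.6 FPKM in the library labelled Epc-dKO and 73.9 FPKM in the wild-type library (-0.35). Cdkn2aip, whose product binds the ARF tumour suppressor and is not a CDK inhibitor, had 17.5 FPKM in the library labelled Epc-dKO and 22.7 FPKM in the wild-type library (-0.36). The inhibitor of Cdk4 and Cdk6 with the highest level was Cdkn2c, with 7.15 FPKM in the library labelled Epc-dKO and 8.64 FPKM in the wild-type library (-0.24). Its relative Cdkn2d had 2.22 FPKM in the library labelled Epc-dKO and 3.21 FPKM in the wild-type library (-0.39). No member of the class passed the rule, and most had similar ratios. Cdkn2a had the largest gap, with 0.848 FPKM in the library labelled Epc-dKO and 1.79 FPKM in the wild-type library (-0.60), and Cdkn2aipnl stood at -0.19.

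The classical inhibitors of the other family were near the floor of the table. Cdkn1a, a p53 target that arrests the cycle, had 0.458 FPKM in the library labelled Epc-dKO and 0.411 FPKM in the wild-type library. Cdkn1b and Cdkn1c, which hold cells out of the cycle in many tissues, were also below the minimum in both libraries, as was Cdkn2b. Of all 61 members, 14 had a mean FPKM below 1, with single values between 0.0555 and 1.07 FPKM. They were Ccnb1ip1, Ccnd2, Ccne2, Ccng1, Ccnj, Ccno, Cdk5, Cdk6, Cdk15, Cdk18, Cdkn1a, Cdkn1b, Cdkn1c and Cdkn2b. Ccnb1ip1, an E3 ligase gene of meiotic crossovers, had 0.112 FPKM in the library labelled Epc-dKO and 0.414 FPKM in the wild-type library, and its exons overlap those annotated for Rpph1.

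**Figure D3:**
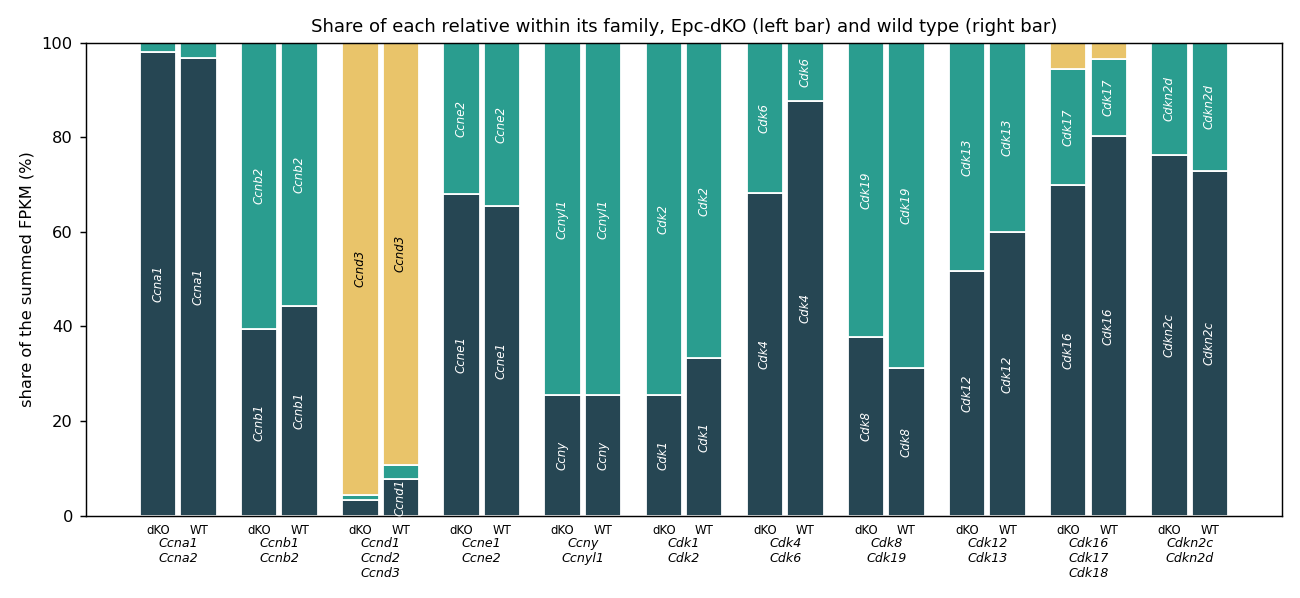
Share of each relative in the summed FPKM of its family (%), with the library labelled Epc-dKO as the left bar and the wild-type library as the right bar of each pair. Ccna1 and Ccnd3 dominate their families in both libraries, and the share of Cdk4 within Cdk4 and Cdk6 is 68.3% in the library labelled Epc-dKO and 87.8% in the wild-type library.

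Within families of relatives the leading gene was the same in both libraries. Ccna1 exceeded Ccna2 by 49.1 times in the library labelled Epc-dKO and by 30.3 times in the wild-type library. Ccnd3 made up 95.6% of the summed D-type cyclin FPKM in the library labelled Epc-dKO and 89.3% in the wild-type library. In both families the share of the minor relatives was smaller in the library labelled Epc-dKO. Ccnb2 made up 60.5% of the B-type pair with Ccnb1 in the library labelled Epc-dKO and 55.7% in the wild-type library. Cdk2 exceeded Cdk1 by 2.91 times in the library labelled Epc-dKO and by 2.01 times in the wild-type library. Cdk4 made up 68.3% of the sum with Cdk6 in the library labelled Epc-dKO and 87.8% in the wild-type library, the widest difference in share among the families compared. Its base is low, since neither gene exceeded 5 FPKM. Cdk12 held 51.7% of the sum with Cdk13 in the library labelled Epc-dKO and 59.9% in the wild-type library.

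Pathway genes outside the family were examined as a list of 57, of which 56 matched and 46 were expressed. The list held activators, brakes and partners of CDKs, Rb and E2F genes, and genes of protein destruction and division. Not all of them act on cyclins or CDKs directly. Of these 2 rose, 0 fell, 29 were below 0, and the median was -0.11. Cdc25c, a phosphatase gene whose product activates Cdk1, rose to 4.02 FPKM in the library labelled Epc-dKO, against 1.30 FPKM in the wild-type library (log2 ratio 1.12). Skp2, the F-box gene of the ligase that marks Cdkn1b protein for destruction, rose to 4.16 FPKM in the library labelled Epc-dKO, against 0.728 FPKM in the wild-type library (1.58). Both genes were below 2 FPKM in the wild-type library. The 2 genes are 4.35% of the 46, beside the 2.75% of all expressed genes that were higher.

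The 5 most abundant genes of the list lay within 2-fold, with log2 ratios between -0.37 and 0.24. Larp7, which holds the elongation kinase in its inactive complex, had 154 FPKM in the library labelled Epc-dKO and 130 FPKM in the wild-type library (log2 ratio 0.24). Plk1, a kinase of division, had 87.1 FPKM in the library labelled Epc-dKO and 105 FPKM in the wild-type library (-0.27). Cdk5rap2, for a centrosome protein, had 71.1 FPKM in the library labelled Epc-dKO and 71.7 FPKM in the wild-type library (-0.01). Abundant division regulators were thus present in both libraries although Cdk1 was low. Fzr1, an activator of the ligase that destroys B-type cyclins, had 49.6 FPKM in the library labelled Epc-dKO and 64.5 FPKM in the wild-type library (-0.37), and the division kinase Aurka had 51.6 FPKM in the library labelled Epc-dKO and 60.3 FPKM in the wild-type library (-0.22).

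**Figure D4:**
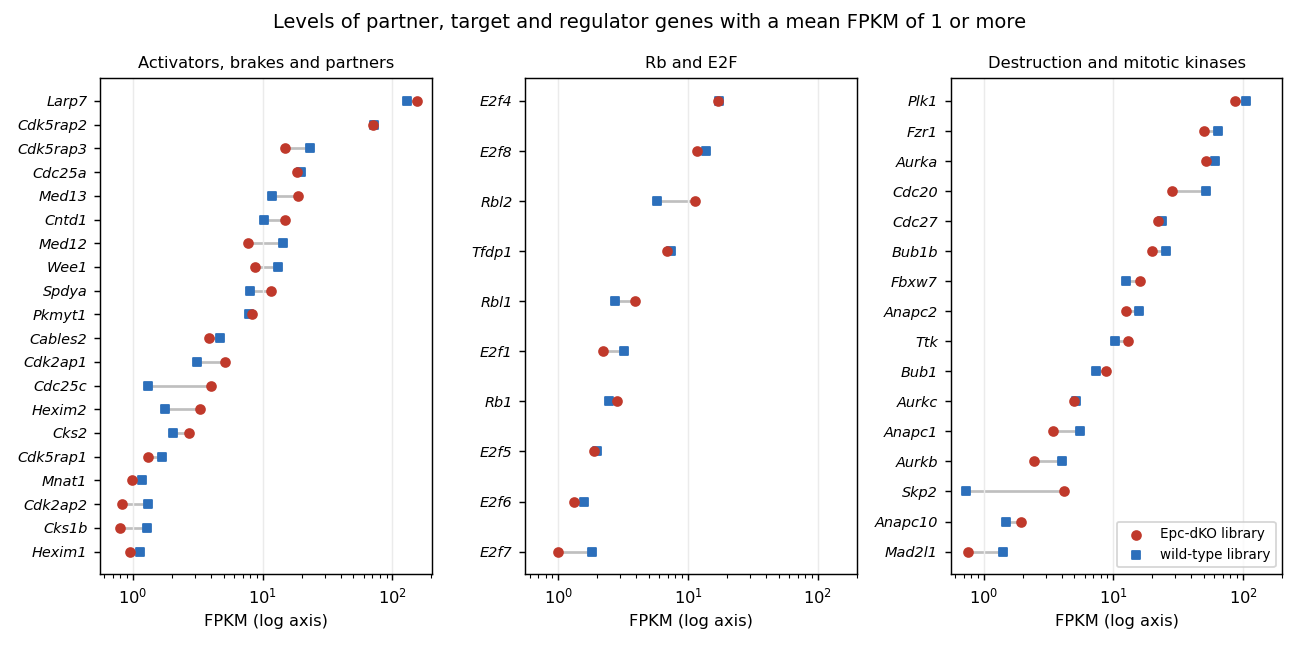
FPKM on a log axis of the 46 expressed genes of the list of pathway genes outside the family, in 3 groups, ordered by mean level. Circles are the library labelled Epc-dKO and squares the wild-type library. Cdc25c and Skp2 have the widest gaps, both higher in the library labelled Epc-dKO.

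The lowest ratios of the list, named after their values were seen, were those of Cdc20 and Med12, and neither passed the rule. Cdc20, an activator of the ligase that destroys B-type cyclins, had 28.2 FPKM in the library labelled Epc-dKO and 52.0 FPKM in the wild-type library (log2 ratio -0.86). Med12, of the Mediator kinase module, had 7.66 FPKM in the library labelled Epc-dKO and 14.4 FPKM in the wild-type library (-0.83). The groups within that list had medians of -0.06 for 20 expressed activators, brakes and partners, -0.06 for 10 Rb and E2F genes and -0.24 for 16 destruction and division genes. The partner list was not restricted to germ cells, and its share below 0 (63.0%) was close to that of the members (63.8%).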

How the data were processed

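RNA-seq values of mouse round spermatids were used as the authors deposited them, in FPKM per gene, 1 column per library. Cufflinks 2.2.1 and the mm9 genome are named in the submitters' processing notes. Which aligner, annotation or strand setting was used, and whether libraries were scaled to each other, is not given in the sources used here. Libraries were made with a directional kit and amplified by PCR, per the labels' protocols. The table had 23235 rows. The 1 row without a gene, which holds codes of the libraries, was left out. Values hold no counts, the depth is unknown, and no interval or detection limit was computed.

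Members were selected by symbol, sorted into 8 role classes, and each log2 ratio was computed with a pseudocount of 1. Members with a mean FPKM of 5 or more, those past 2-fold, and fixed sets of relatives were to be given in full. The members and lists were chosen with earlier results of these data known. With 1 library per genotype no test was run. Chromosomes came from GENCODE M21 and RefSeq on GRCm38, matched by symbol for 99.2% of expressed genes; coordinates printed are GRCm38.p6, not mm9. On that annotation 26 of the 61 members share exon bases with a gene on the opposite strand, in 11 cases a coding gene, among them Ccna2, Ccnd1, Ccnd3, Cdk2 and Cdk4. Whether counting used the strand is not given, so their values may include reads of the neighbour. CCAAT was added to the motifs after the sequences were seen. Promoters were found for 49 members. The values of 1 member are not reported here, although counts and medians include it. Python 3.11.15, NumPy 2.4.6, pandas 2.3.3 and Matplotlib 3.10.9 were used.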

Additional observations from a re-analysis of the deposited data

How the results depend on the processing

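The 9 alternatives were pseudocounts of 0.1 and 0.5, no minimum or a minimum mean of 5 FPKM, 4 rescalings of the libraries and a 4-fold rule. Higher members stayed at 0 under every one, where between 0.728% (4-fold rule) and 4.15% (pseudocount of 0.1) of the genes entered were higher. With a pseudocount of 0.1, 3 of 47 members were lower (Ccna2, Ccnb3 and Ccnd1), where 6.25% of expressed genes were. With a pseudocount of 0.5, 1 of 47 was lower (Ccnb3), where 3.49% of expressed genes were. On the TPM scale 5 of the 60 members that entered were lower (Ccna2, Ccnb1ip1, Ccnb3, Ccnd1 and Ccnd2), where 6.96% of 15151 genes were. On that scale the pseudocount weighs less. Lower members numbered 0 under the other settings. There the share of the genes entered that were lower ran from 0.565% (4-fold rule) to 2.05% (rescaling to the sum without the 100 highest genes). The median over expressed members stayed between -0.17 and -0.07. The median of the cell cycle cyclins was -0.33 with a minimum of 5 FPKM, where fewer genes enter and the Cdkn genes stood lower at -0.35, and -0.39 and -0.40 when the libraries were rescaled to a median ratio of 1 or to the upper quartile, where Ccnb3 drops below the minimum. Other CDKs had a median of -0.18 with a minimum of 5 FPKM, 0.13 with no minimum and 0.15 on the TPM scale, where low genes enter. Cell cycle CDKs stood at -0.45 with a pseudocount of 0.1 and -0.12 with no minimum, and Cdkn genes at -0.24 with no minimum. Of 353 comparisons of a member ratio with an alternative, 346 kept their side of the 2-fold rule, and 3, of Ccnl2 and Ccnt1, differed in sign. The settings that changed only the minimum leave each ratio as it was, so their share of these comparisons could not move. Cdc25c and Skp2 stayed past 2-fold wherever they entered, except under the 4-fold rule. Of their list of pathway genes 0 were lower under every setting but the TPM scale. There 54 genes of the list entered and E2f2 was lower by 2-fold. No rescaling moved the median of all genes by over 0.1. No paired analysis was possible because there is 1 library of each genotype. Since the depth is unknown, members of a few FPKM or less are the least certain.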
